A study of Homo sapiens with 22 samples.

Results

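Quercetin and rutin are related plant flavonols: rutin is quercetin that carries the disaccharide rutinose. Their mean effect was examined in 6 of the 22 libraries of the series, 3 made from cells given quercetin and 3 from cells given rutin. These 6 libraries were chosen by their labels, pooled with equal weight for each compound, and compared with 4 libraries of cells that received the toxin without a compound. A call in this pooled comparison can rest mainly on either compound, so it need not be common to both. All 10 libraries came from differentiated LUHMES cells, a human mesencephalic line, that overexpressed alpha-synuclein and were treated with 6-OHDA. The other 12 libraries were 4 each of untreated control cells, control cells with 6-OHDA and untreated alpha-synuclein cells, where control means wild type. No library analysed here came from cells given a compound without 6-OHDA or without alpha-synuclein overexpression, so an effect of the compounds outside that setting could not be measured. The sources used here do not give doses, exposure times, the promoter that drives alpha-synuclein or whether the line is 1 clone. Nor do they say that replicates were separate cultures, and p-values therefore measure the spread between these libraries, which may be technical.

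LUHMES cells are conditionally immortalised and become post-mitotic neurons with dopaminergic features once the immortalising gene is switched off. The toxin 6-OHDA is an oxidisable dopamine analogue that enters such neurons and damages them through reactive oxygen species, and it is used to model the loss of dopamine neurons in Parkinson disease. Flavonols are studied as antioxidants and as modulators of stress signalling, among them the unfolded protein response, in which proteins that fail to fold in the endoplasmic reticulum (ER) switch on genes for chaperones and for the removal of misfolded proteins.

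The 10 libraries held between 2520764 and 18607226 counts, and levels are given as counts per 1000000 (CPM) on TMM-scaled library sizes, on which 3 counts, the floor taken for detection, were worth 0.17 to 1.08 CPM. In 6-OHDA alone, replicate 4 was the deepest of the 4 libraries and stood apart from replicates 1 to 3, so most pooled comparisons of named genes are given with and without it. The 7 neuronal markers, such as TUBB3, MAP2 and STMN2, were all detected, with a summed level of 2820 to 3220 CPM in 6-OHDA replicates 1 to 3, 4340 in replicate 4 and 2540 to 2900 with a flavonol. All markers of the other cell types that were in the table also had counts in these libraries, and their sums overlapped between the flavonols pooled and 6-OHDA alone in each list. In the quercetin libraries astrocyte markers summed to 66.8 to 75.3 CPM, above 57.3 to 66 in 6-OHDA alone. Fibroblast markers there summed to 25.9 to 27.6 CPM, above 19.7 to 25.1. The rutin libraries overlapped with 6-OHDA alone in both lists. Cycling-cell markers summed to 52 to 84.8 CPM in 6-OHDA replicates 1 to 3, 108 in replicate 4 and 66.1 to 143 with a flavonol. The estimates of 9 of these 10 markers were above 0, with a median log2 change of 0.47 (0.83 without replicate 4), and none was called by edgeR. The 4 neural progenitor markers tested had a median of 0.47 (0.39 without replicate 4), and summed to 163 to 214 CPM in 6-OHDA alone and 196 to 283 with a flavonol. The part of these markers in the results was not tested. Mitochondrial mRNAs took 1.11% ± 0.235 of counts with a flavonol (SD, n = 6) and 0.989% ± 0.127 in 6-OHDA alone (SD, n = 4), and the difference was not significant (exact permutation test, two-sided, p = 0.371, and p = 0.476 without replicate 4). In bulk RNA, fewer cells of a type and less RNA per cell cannot be told apart.

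With both compounds pooled, 53 genes were higher and 286 lower than in 6-OHDA alone, which is 0.319% and 1.72% of the 16601 genes tested (edgeR, Benjamini-Hochberg adjusted p under 0.05). Most changes were small: 26 genes, 7 higher and 19 lower, changed at least 2-fold, and the median size of the called changes was 0.47 on the log2 scale. Without 6-OHDA replicate 4, 11 genes were called, or 0.0669% of the 16431 tested, all of them lower and all among the 286. DESeq2 called 59 higher and 160 lower genes without replicate 4. At an unadjusted p under 0.05, 829 genes were higher and 1723 lower with all 4 libraries of 6-OHDA alone, and 749 and 883 without replicate 4. Every one of the 339 called genes kept its direction when replicate 4 was left out, and the median size of their changes went from 0.47 to 0.33. These genes were chosen by the fit with replicate 4, and both fits share all other libraries. The kept direction is therefore not separate support for the calls. Replicate 4 had the highest level of the 4 libraries in 262 of the 286 lower genes, against 5976 (36%) of all genes tested. It had the lowest level in 20 of the 53 higher genes, for which the share of all genes tested was not computed.

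**Figure D1:**
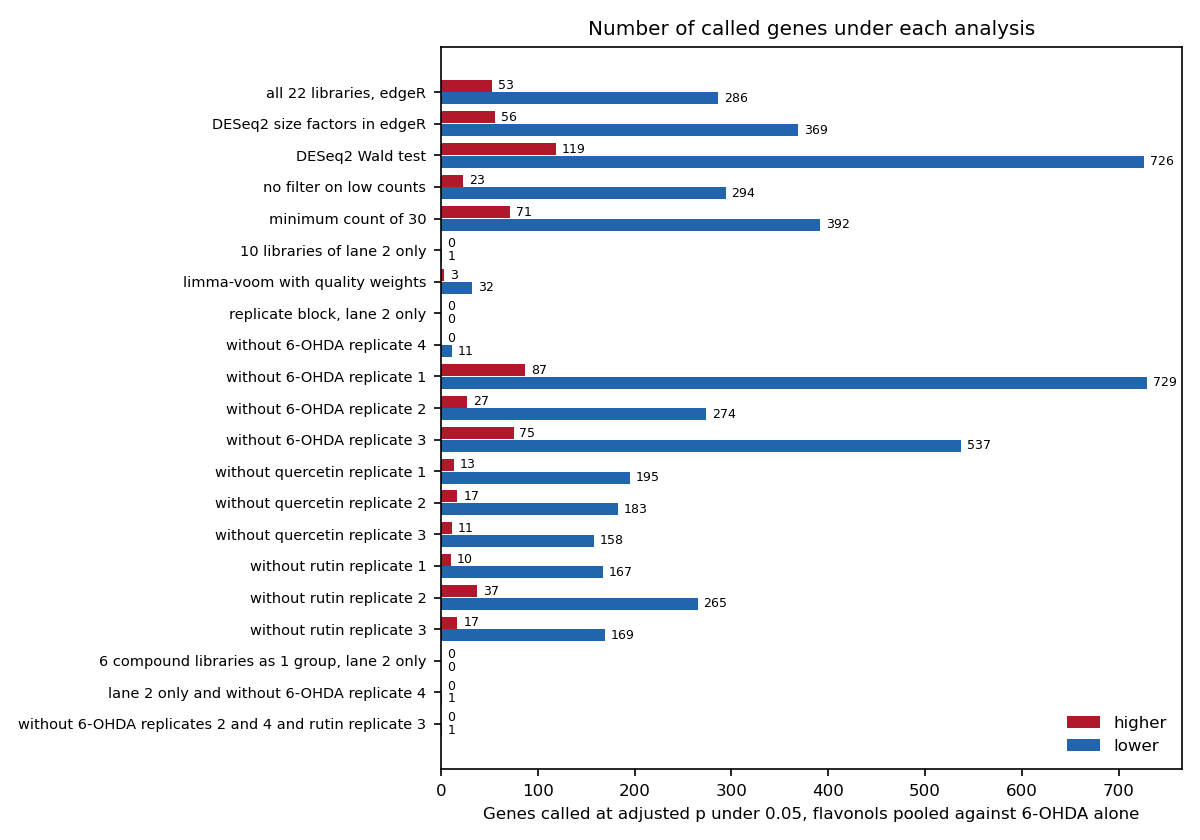
Number of genes called higher (red) or lower (blue) with the flavonols pooled than in 6-OHDA alone, at an adjusted p under 0.05, for each analysis on the vertical axis. Lower calls outnumber higher calls in every analysis shown in which a gene is called, and the count of lower genes runs from 0 in fits with a replicate block or with the compounds as 1 group to 729 without 6-OHDA replicate 1.

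The counts also differed with the libraries that were fitted. When only the 10 libraries of lane 2 were fitted, 1 gene was called, the lipocalin-like gene LCNL1, which was lower, and 2177 genes had an unadjusted p under 0.05. Leaving out 6-OHDA replicate 1 gave 87 higher and 729 lower genes, and leaving out replicate 3 gave 75 and 537. Leaving out 1 flavonol library at a time gave 10 to 37 higher and 158 to 265 lower genes. The 11 genes called without replicate 4 were called in each of these fits that left out 1 library, under 2 scalings, 3 filters on low counts, DESeq2 and limma-voom with quality weights. None of the 11 was called when only the 10 libraries of lane 2 were fitted, where all 11 had an unadjusted p under 0.05 and their adjusted p ran from 0.121 to 0.141. The count of 11 itself rested on single libraries: with replicate 4 left out, it became 1 without 6-OHDA replicate 2, 2 without rutin replicate 3, 3 without quercetin replicate 3, 4 without rutin replicate 1 and 6 without quercetin replicate 1.

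The 11 genes encode proteins of several kinds. ATP2B4, ADGRG1, BDKRB2 and SLC22A23 encode proteins of the cell surface, SYVN1, REEP2 and CRELD1 proteins of the ER membrane, FLNC and HDAC6 proteins that act on the cytoskeleton, INTS3 a nuclear protein and THBS3 a secreted one. In 10 of them no flavonol library reached the level of any library of 6-OHDA alone, and THBS3 overlapped. Non-overlapping levels were found in 326 genes that were lower and 210 that were higher with the flavonols, 1.96% and 1.26% of those tested, so the separation by itself is not particular to these genes.

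**Figure D2:**
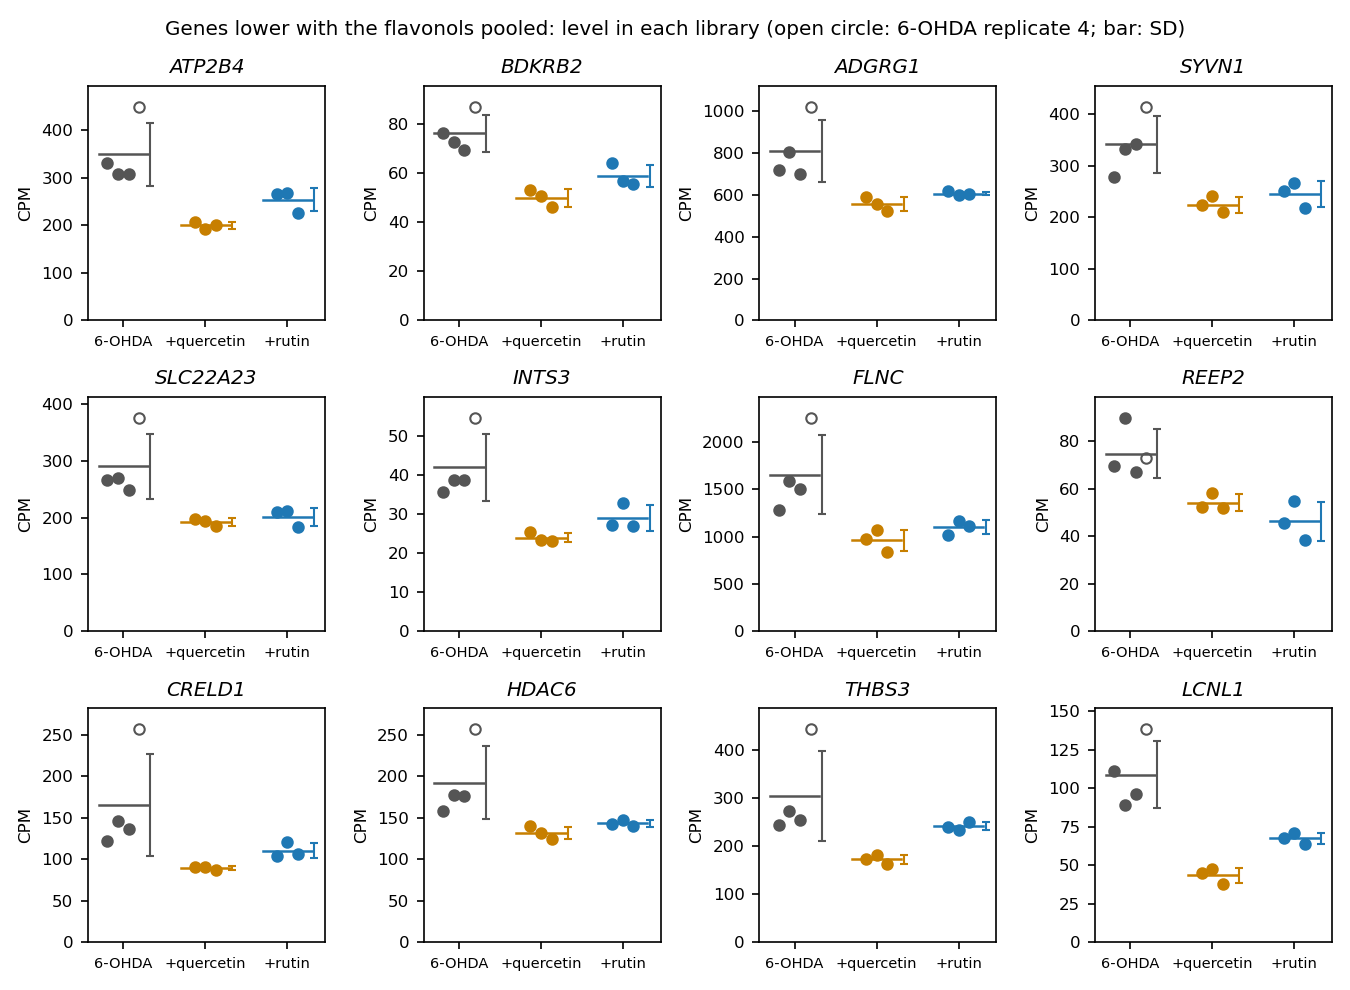
Level in CPM, from 0, of the 11 genes called with and without 6-OHDA replicate 4 and of LCNL1, for each library of 6-OHDA alone (grey, n = 4, replicate 4 as an open circle), quercetin (orange, n = 3) and rutin (blue, n = 3); lines are group means and bars SDs. In ATP2B4 the 6 flavonol libraries lie at 191 to 268 CPM and the 4 others at 308 to 448, while in THBS3 rutin replicate 3 lies above 6-OHDA replicate 1.

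ATP2B4 encodes a plasma membrane pump that removes calcium from the cell (ENSG00000058668.14, chr1:203626561-203744081, plus strand, GENCODE 29 on GRCh38). Its level was 330.3, 308, 308 and 448 CPM in 6-OHDA replicates 1 to 4, 207, 191 and 200.3 with quercetin and 266, 268 and 225 with rutin. The 6 flavonol libraries were all below the 4 of 6-OHDA alone, with quercetin below rutin and replicate 4 above replicates 1 to 3. The pooled log2 change was -0.64 ± 0.09 (SE, edgeR adjusted p = 0.00385), and -0.49 ± 0.06 (SE, edgeR adjusted p = 0.00163) without replicate 4. Untreated alpha-synuclein cells had 870.4 ± 54.4 CPM (SD, n = 4), so the flavonol libraries lay further from the untreated level than 6-OHDA alone did. The untreated libraries were on lane 1, so in such comparisons lane and treatment cannot be told apart.

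FLNC encodes filamin C, which crosslinks actin filaments (ENSG00000128591.15, chr7:128830377-128859274, plus strand). Its level was 1281, 1582, 1502 and 2246 CPM in 6-OHDA replicates 1 to 4, 973, 1064 and 839 with quercetin and 1015, 1165 and 1112 with rutin. The groups did not overlap, and replicate 4 was again the highest library. On the log2 scale the pooled change was -0.69 ± 0.11 (SE, edgeR adjusted p = 0.00953), and -0.50 ± 0.09 (SE, edgeR adjusted p = 0.0302) without replicate 4. Here the flavonol libraries lay nearer to the untreated alpha-synuclein cells, which had 782 ± 45.9 CPM (SD, n = 4).

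SYVN1 encodes the ubiquitin ligase that marks misfolded ER proteins for degradation (ENSG00000162298.18, chr11:65121780-65134533, minus strand). Its level was 278, 332, 342 and 414 CPM in 6-OHDA replicates 1 to 4, 223, 241 and 209.5 with quercetin and 252, 266 and 218 with rutin. The groups did not overlap, although rutin replicate 2 came close to 6-OHDA replicate 1. With both compounds pooled, the log2 change was -0.54 ± 0.09 (SE, edgeR adjusted p = 0.00757), and -0.43 ± 0.08 (SE, edgeR adjusted p = 0.0302) without replicate 4. Untreated alpha-synuclein cells had 155 ± 9.25 CPM (SD, n = 4), below all 10 libraries.

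REEP2 encodes a protein that shapes the ER membrane (ENSG00000132563.16, chr5:138439017-138446969, plus strand). Its level was 69.8, 89.7, 67 and 72.8 CPM in 6-OHDA replicates 1 to 4, 52.3, 58.4 and 52 with quercetin and 45.8, 54.7 and 38.5 with rutin. It was the gene of the 11 in which 6-OHDA replicate 2, not replicate 4, was the highest library. edgeR gave a pooled log2 change of -0.56 ± 0.09 (SE, edgeR adjusted p = 0.0118), and the value without replicate 4 was -0.57 ± 0.10 (SE, edgeR adjusted p = 0.0353). CRELD1 encodes an EGF-like protein of the ER membrane (ENSG00000163703.17, chr3:9933822-9945413, plus strand). Its level was 122.1, 146, 137 and 257 CPM in 6-OHDA replicates 1 to 4, 91.4, 91 and 87.4 with quercetin and 104.7, 120.6 and 106.7 with rutin. Replicate 4 lay far above the other 3, and the rutin replicate 2 level was just under that of 6-OHDA replicate 1. Against all 4 libraries the log2 change was -0.74 ± 0.14 (SE, edgeR adjusted p = 0.0187), and -0.43 ± 0.07 (SE, edgeR adjusted p = 0.0204) without replicate 4.

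ADGRG1 encodes an adhesion receptor known for its part in cortical development (ENSG00000205336.11, chr16:57610652-57665580, plus strand). Its level was 717, 805, 699 and 1018 CPM in 6-OHDA replicates 1 to 4, 591, 555 and 524 with quercetin and 616, 599 and 602 with rutin. The 3 rutin libraries were close together just above quercetin, and all 6 were below 6-OHDA alone. The 6 flavonol libraries gave a log2 change of -0.48 ± 0.08 (SE, edgeR adjusted p = 0.00757), and -0.35 ± 0.05 (SE, edgeR adjusted p = 0.00743) without replicate 4. BDKRB2 encodes a receptor for the inflammatory peptide bradykinin (ENSG00000168398.6, chr14:96204679-96244166, plus strand). Its level was 76.1, 72.5, 69.3 and 86.6 CPM in 6-OHDA replicates 1 to 4, 53, 50.4 and 46 with quercetin and 63.8, 56.8 and 55.6 with rutin. Each quercetin library of BDKRB2 was below each rutin library, and each rutin library was below 6-OHDA alone. The pooled log2 change was -0.50 ± 0.07 (SE, edgeR adjusted p = 0.00513), and -0.43 ± 0.07 (SE, edgeR adjusted p = 0.0204) without replicate 4.

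SLC22A23 encodes a transporter-like protein whose substrates are not established (ENSG00000137266.14, chr6:3268962-3457022, minus strand). Its level was 266, 269, 249 and 374 CPM in 6-OHDA replicates 1 to 4, 197, 195 and 185 with quercetin and 210, 211 and 183 with rutin. Quercetin and rutin overlapped, and both lay below 6-OHDA alone. On the log2 scale the pooled change was -0.56 ± 0.09 (SE, edgeR adjusted p = 0.00757), and -0.41 ± 0.07 (SE, edgeR adjusted p = 0.0204) without replicate 4. HDAC6 encodes the cytoplasmic deacetylase of tubulin (ENSG00000094631.19, chrX:48801377-48824982, plus strand). Its level was 158, 178, 176 and 256 CPM in 6-OHDA replicates 1 to 4, 139.8, 131 and 124.4 with quercetin and 142, 148 and 140.3 with rutin. Among the 11 genes HDAC6 had the smallest change once replicate 4 was left out: the pooled log2 change was -0.49 ± 0.09 (SE, edgeR adjusted p = 0.0187), and -0.31 ± 0.05 (SE, edgeR adjusted p = 0.0302) without it.

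INTS3 encodes a subunit of the Integrator complex, which acts with RNA polymerase II (ENSG00000143624.14, chr1:153728067-153774808, plus strand). Its level was 35.6, 38.8, 38.8 and 54.5 CPM in 6-OHDA replicates 1 to 4, 25.3, 23.5 and 23.2 with quercetin and 27.3, 32.8 and 26.9 with rutin. The highest flavonol library, rutin replicate 2, lay just below 6-OHDA replicate 1. With both compounds pooled, the log2 change was -0.68 ± 0.11 (SE, edgeR adjusted p = 0.00757), and -0.51 ± 0.09 (SE, edgeR adjusted p = 0.0327) without replicate 4. THBS3 encodes a thrombospondin of the extracellular matrix (ENSG00000169231.13, chr1:155195588-155209051, minus strand) and was added although its groups overlap. Its level was 243, 273, 254 and 442 CPM in 6-OHDA replicates 1 to 4, 173, 181 and 163 with quercetin and 238, 233 and 249.9 with rutin. The 3 quercetin libraries were well below 6-OHDA alone, whereas the rutin libraries lay near 6-OHDA replicates 1 to 3. edgeR gave a pooled log2 change of -0.58 ± 0.11 (SE, edgeR adjusted p = 0.0195), and -0.33 ± 0.06 (SE, edgeR adjusted p = 0.0327) without replicate 4.

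The wild-type libraries, on lane 1, gave a separate reading of how these genes respond to 6-OHDA. There 6-OHDA raised 25.8% and lowered 26.2% of the genes tested. Of the 11 genes, 2 rose with 6-OHDA in wild-type cells, FLNC by 1.83 and SYVN1 by 1.46 on the log2 scale (edgeR adjusted p = 2.08e-10 and 9.75e-11), and were lower with the flavonols. Another 6 genes were lowered by 6-OHDA there and were lower still with the flavonols: ATP2B4 (-1.79), INTS3 (-1.19), THBS3 (-0.86), HDAC6 (-0.78), ADGRG1 (-0.48) and REEP2 (-0.27). BDKRB2, SLC22A23 and CRELD1 were not called in the wild-type comparison, where SLC22A23 was called higher in the fit without replicate 4, by 0.17 (edgeR adjusted p = 0.04). The 11 genes therefore held members that the toxin raised and members that it lowered.

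Across all 286 lower genes, 174 (60.8%, beside 26.2% of all genes tested) were also lowered by 6-OHDA in wild-type cells. The 174 are 3.99% of the genes lowered there, and 43 of the 286 were raised. Of the 53 higher genes, 38 (71.7%, beside 25.8% of all genes tested) were also raised by 6-OHDA in wild-type cells. The 38 are 0.888% of the genes raised there, and 6 of the 53 were lowered. These overlaps are of genes called with replicate 4, which was the highest of the 4 libraries in 262 of the 286. They were not counted without it. Across genes, the flavonol change and the wild-type 6-OHDA change had a correlation of 0.31, and 0.071 without replicate 4. Genes are not independent replicates, so both values are descriptions.

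Each library was placed along the wild-type response by the mean log2 level of 2027 genes that 6-OHDA raised at least 2-fold there minus that of 1337 genes that it lowered. Untreated libraries lay at -4.37 to -3.73 and wild-type libraries with 6-OHDA at -1.22 to -1.10. In alpha-synuclein cells with 6-OHDA alone, replicates 1 to 3 lay at -1.73, -1.82 and -1.73, and replicate 4 at -2.68. The quercetin libraries lay at -1.61, -1.57 and -1.73 and the rutin libraries at -1.77, -1.76 and -1.69. Replicate 4 was thus the library of these 10 nearest to the untreated ones, and the other 9 overlapped. Whether replicate 4 received the toxin, or responded to it, as the other libraries did was not tested, so values against all 4 libraries take its label as given. The flavonols pooled differed from 6-OHDA alone by 0.302 (exact permutation test, two-sided, p = 0.0524; 210 splits allow a p down to 0.0048), and by 0.0725 without replicate 4 (p = 0.202; smallest possible 0.012). With only the genes that changed at least 4-fold in wild-type cells the difference was 0.406 (exact permutation test, p = 0.0381) with replicate 4 and 0.0901 (p = 0.179) without it.

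**Figure D3:**
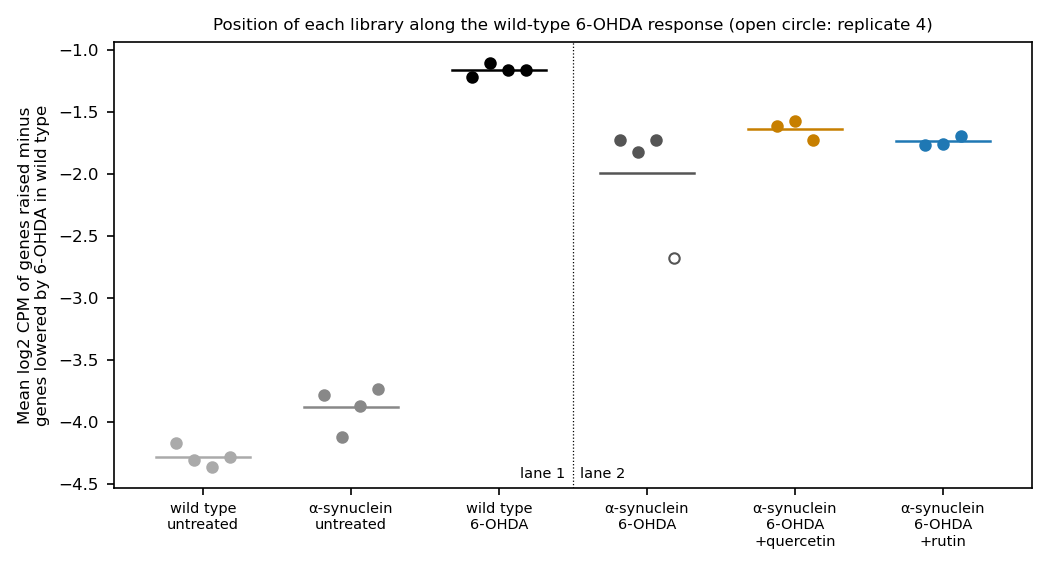
Position of each of the 22 libraries along the wild-type 6-OHDA response, as the mean log2 CPM of genes raised minus that of genes lowered by 6-OHDA in wild-type cells; points are libraries, lines group means, and the dotted line separates lanes. The 6 flavonol libraries lie at -1.77 to -1.57 beside 6-OHDA replicates 1 to 3, and replicate 4 (open circle) lies at -2.68, toward the untreated groups.

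Among 30 lists of pathway genes, 451 genes were tested, of which 6 were called higher and 10 lower, or 3.55% beside 2.04% of all genes tested. Without replicate 4 edgeR called none of the 451, of which 77 had an unadjusted p under 0.05, and DESeq2 called 6 higher and 4 lower. DESeq2 with all libraries called 19 higher and 36 lower. Over all genes tested DESeq2 called more genes than edgeR, 119 higher and 726 lower of 16601, and 59 and 160 of 16431 without replicate 4. The 10 lists with a call by edgeR are described in turn, with edgeR's calls unless another tool is named, each beside the median log2 change of all genes tested, which was -0.02 and -0.01 without replicate 4.

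The ER chaperone and unfolded protein response list held 17 tested genes, of which 3 were lower, none was higher and 14 were not called by edgeR. DESeq2 called 9 of the 17 lower, and 1 without replicate 4, beside 726 and 160 lower genes among all genes tested. Their median pooled log2 change was -0.44, and -0.23 without replicate 4, and the pooled estimates of all 17 were below 0 in both fits. Against all 4 libraries, the estimate with quercetin was below that with rutin in all but DNAJB9 and DNAJC3. In HSP90B1 the values were -1.10 and -0.42. EDEM1 was above 0 with rutin (0.07) and DNAJB9 with quercetin (0.04). Without replicate 4, MANF, PDIA3 and DNAJB11 were called lower with quercetin than with rutin (edgeR adjusted p = 0.0348, 0.0348 and 0.0472). All 17 were raised by 6-OHDA in wild-type cells, with a median log2 change of 1.65. HERPUD1, which encodes a membrane component of ER-associated degradation, had 393, 444, 375 and 597 CPM in 6-OHDA replicates 1 to 4, 323, 307 and 288 with quercetin and 341, 363 and 355 with rutin, with no overlap between the flavonols and 6-OHDA alone. Against all 4 libraries the log2 change was -0.46 ± 0.10 (SE, edgeR adjusted p = 0.0222), and -0.30 ± 0.07 (SE, edgeR adjusted p = 0.118) without replicate 4. HYOU1, an ER chaperone, had 87.2, 97.3, 118.7 and 142 CPM in 6-OHDA replicates 1 to 4, 66.9, 72.2 and 81.6 with quercetin and 75.8, 91.5 and 74.9 with rutin, so that rutin replicate 2 overlapped with 6-OHDA replicate 1. The 6 flavonol libraries gave a log2 change of -0.54 ± 0.13 (SE, edgeR adjusted p = 0.0337), and -0.38 ± 0.12 (SE, edgeR adjusted p = 0.245) without replicate 4. PDIA6, an enzyme that rearranges disulphide bonds in the ER, had 403, 456, 519.8 and 924 CPM in 6-OHDA replicates 1 to 4, 269, 319 and 349 with quercetin and 427, 552 and 365 with rutin. Its rutin libraries lay within the range of 6-OHDA replicates 1 to 3 or beside it, and its quercetin libraries below. The pooled log2 change was -0.63 ± 0.16 (SE, edgeR adjusted p = 0.0484), and -0.29 ± 0.11 (SE, edgeR adjusted p = 0.371) without replicate 4. By compound it was then -0.55 with quercetin and -0.03 with rutin. The most negative estimate of the list was that of the chaperone gene HSP90B1, at -0.76 ± 0.21 (SE, edgeR adjusted p = 0.0558; without replicate 4 -0.58 ± 0.22, adjusted p = 0.33), with 140 to 229 CPM in 6-OHDA alone and 69.6 to 152 with a flavonol. The counts of this list rested on replicate 4, which had the highest level of the 4 libraries in each of the 3 called genes.

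**Figure D4:**
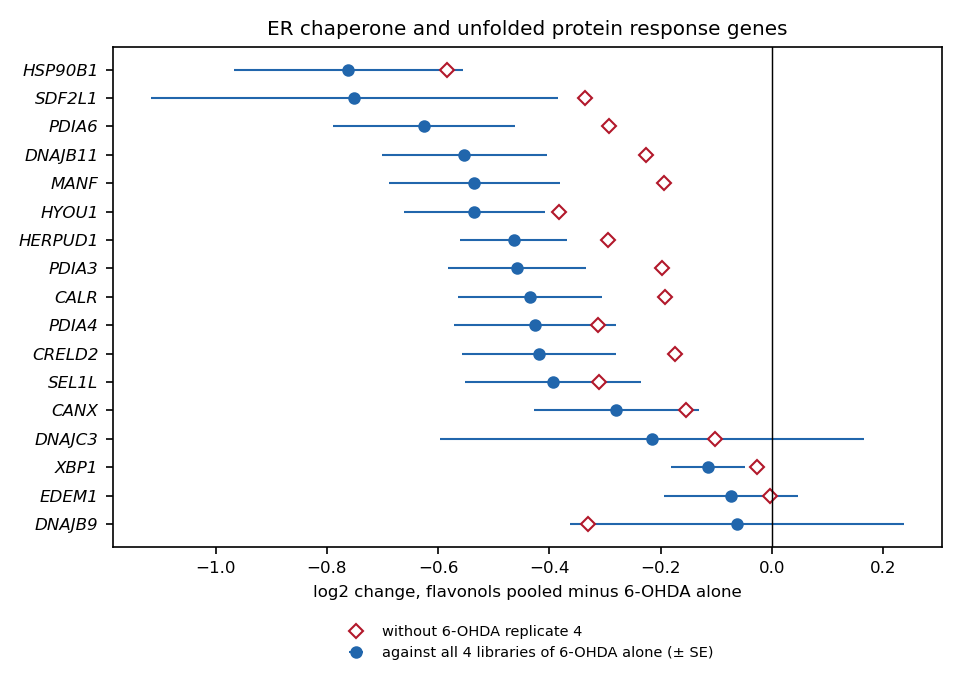
Pooled log2 change of the 17 tested ER chaperone and unfolded protein response genes, flavonols minus 6-OHDA alone, against all 4 libraries (blue circles with SE bars) and without replicate 4 (red diamonds). All points lie at or below 0, and the median goes from -0.44 to -0.23 when replicate 4 is left out.

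Promoters of the 3 called ER genes and of the 11 genes were searched for the elements through which ER stress factors act. Only promoters with a match in the bases shown are printed, which among the 11 genes left FLNC. Each line gives the 250 bases before a transcription start of RefSeq (GRCh38.p14), 5′ to 3′ on the strand of the gene, with the fixed letters of a matched element in capitals. The elements searched on both strands were the ER stress element (CCAAT, any 9 bases, then CCACG), its second form (ATTGG, any 1 base, then CCACG) and the unfolded protein response element TGACGTGG.
HERPUD1 promoter, chr16:56931892-56932141, plus strand: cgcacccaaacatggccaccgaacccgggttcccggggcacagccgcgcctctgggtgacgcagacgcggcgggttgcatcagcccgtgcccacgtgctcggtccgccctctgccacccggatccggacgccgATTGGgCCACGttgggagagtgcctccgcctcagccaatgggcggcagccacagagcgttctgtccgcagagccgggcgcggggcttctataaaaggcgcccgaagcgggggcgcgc
PDIA6 promoter, chr2:10812786-10813035, minus strand: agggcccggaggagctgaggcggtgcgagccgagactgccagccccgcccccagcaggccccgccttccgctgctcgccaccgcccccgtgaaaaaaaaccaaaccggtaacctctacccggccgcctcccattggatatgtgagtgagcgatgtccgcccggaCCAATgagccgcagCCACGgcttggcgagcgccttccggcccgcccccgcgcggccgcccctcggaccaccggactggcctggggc
HYOU1 promoter, chr11:119057206-119057455, minus strand: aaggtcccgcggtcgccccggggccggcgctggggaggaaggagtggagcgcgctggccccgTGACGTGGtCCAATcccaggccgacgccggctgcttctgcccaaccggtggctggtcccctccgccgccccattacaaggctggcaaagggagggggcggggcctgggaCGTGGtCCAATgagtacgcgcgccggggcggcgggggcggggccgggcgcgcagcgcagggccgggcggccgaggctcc
FLNC promoter, chr7:128830156-128830405, plus strand: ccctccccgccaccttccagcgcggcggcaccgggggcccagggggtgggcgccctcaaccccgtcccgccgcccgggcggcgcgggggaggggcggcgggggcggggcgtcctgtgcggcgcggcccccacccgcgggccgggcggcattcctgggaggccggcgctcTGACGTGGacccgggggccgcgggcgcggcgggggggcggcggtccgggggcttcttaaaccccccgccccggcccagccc

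HERPUD1 held the second form of the ER stress element, PDIA6 the first form, HYOU1 the second form at 2 places, and FLNC the unfolded protein response element. In HYOU1 the unfolded protein response element overlapped with the upstream copy of the second form. In windows of 250 bases before to 50 after the start, 16 of the 17 ER genes had 22 promoters, of which 8 held the first form, 3 the second form and 1 the unfolded protein response element. The same elements were present in 0.0769%, 0.0541% and 0.729% of 35116 promoters of 27305 genes. The list was chosen as genes of the unfolded protein response, so its shares describe the list and not the flavonol change. The 11 genes called without replicate 4 had 17 promoters, of which that of FLNC held the unfolded protein response element and none held either form of the ER stress element. A match is a description of the sequence and was not tested for binding.

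Oxidative stress genes were mostly not called. Of 17 NRF2 targets tested, 1 was lower and none higher, with a median log2 change of 0.15 (0.07 without replicate 4). The lower gene was SLC7A11, which encodes the cystine importer used for glutathione synthesis. Its level was 234, 271, 228 and 417 CPM in 6-OHDA replicates 1 to 4, 146, 155 and 152 with quercetin and 199, 215 and 211 with rutin. Its groups did not overlap, and quercetin lay below rutin. On the log2 scale the pooled change was -0.70 ± 0.17 (SE, edgeR adjusted p = 0.0337), and -0.46 ± 0.15 (SE, edgeR adjusted p = 0.241) without replicate 4. HMOX1, the haem oxygenase gene of the same list, had 62.1, 51, 53.8 and 14.3 CPM in 6-OHDA replicates 1 to 4, 90, 73.4 and 51.6 with quercetin and 75.4, 47.3 and 75.9 with rutin. Replicate 4 was low and the other 9 libraries overlapped, and the pooled log2 change of 0.64 was not called (edgeR adjusted p = 0.264; without replicate 4 0.29, adjusted p = 0.671).

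Of 12 immediate-early genes tested, which answer rapidly to signals and stress, 1 was higher and none lower, with a median log2 change of 0.55 (0.19 without replicate 4). The higher gene was IER2, at 55.8, 38.8, 37.8 and 45.3 CPM in 6-OHDA replicates 1 to 4, 81.4, 69.8 and 59.4 with quercetin and 73.3, 70.9 and 67.2 with rutin. Each flavonol library of IER2 was above each library of 6-OHDA alone. With both compounds pooled, the log2 change was 0.65 ± 0.15 (SE, edgeR adjusted p = 0.0305), and without replicate 4 the estimate was of the same size but not called, at 0.65 ± 0.17 (SE, edgeR adjusted p = 0.142). In the list of NF-kappaB and inflammation genes 2 of 10 tested were higher. RELB, a subunit of NF-kappaB, had 2.82, 6.1, 5.87 and 4.43 CPM in 6-OHDA replicates 1 to 4, 9.98, 11.8 and 8.84 with quercetin and 7.58, 6.32 and 6.3 with rutin. The groups did not overlap, but rutin replicates 2 and 3 lay just above 6-OHDA replicate 2. edgeR gave a pooled log2 change of 0.85 ± 0.20 (SE, edgeR adjusted p = 0.0346), and 0.82 ± 0.24 (SE, edgeR adjusted p = 0.174) without replicate 4. NFKBIE, an inhibitor of NF-kappaB, had 18.6, 19.4, 20.2 and 14.1 CPM in 6-OHDA replicates 1 to 4, 26.7, 32 and 25.3 with quercetin and 22, 24.7 and 25.5 with rutin, with no overlap. Against all 4 libraries the log2 change was 0.55 ± 0.14 (SE, edgeR adjusted p = 0.0469), and 0.42 ± 0.15 (SE, edgeR adjusted p = 0.286) without replicate 4. The median of the list was 0.14 (0.03 without replicate 4).

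NGFR, which encodes the low-affinity receptor for neurotrophins, was the only called member of 9 tested neurotrophin and GDNF receptor genes. Its level was 7.15, 1.08, 2.58 and 1.65 CPM in 6-OHDA replicates 1 to 4, 17.6, 11.1 and 12.6 with quercetin and 10.1, 7.72 and 10.1 with rutin. All 6 flavonol libraries were above the 4 of 6-OHDA alone, where replicate 1 was the highest and replicate 2 lay at the detection floor. The 6 flavonol libraries gave a log2 change of 1.84 ± 0.35 (SE, edgeR adjusted p = 0.0187), and 1.46 ± 0.36 (SE, edgeR adjusted p = 0.135) without replicate 4. For NGFR the estimate was 2.66 without 6-OHDA replicate 1, and 1.11 (edgeR adjusted p = 0.638) without 6-OHDA replicates 2 and 4 and rutin replicate 3. The median of the receptor list was -0.03 (0.01 without replicate 4). Among 22 pan-neuronal and synaptic genes tested, NEFH was higher and NCAM1 lower, with a median of -0.22 (-0.10 without replicate 4). NEFH, the heavy neurofilament gene, had 387, 372, 478 and 395 CPM in 6-OHDA replicates 1 to 4, 548, 581 and 548 with quercetin and 469.8, 510 and 431 with rutin. The quercetin libraries of NEFH were above all 4 of 6-OHDA alone and the rutin libraries overlapped with them. The pooled log2 change was 0.33 ± 0.08 (SE, edgeR adjusted p = 0.0386), and 0.32 ± 0.09 (SE, edgeR adjusted p = 0.152) without replicate 4. NCAM1, a neural adhesion molecule, had 798, 951, 707 and 1497 CPM in 6-OHDA replicates 1 to 4, 749.8, 708 and 665 with quercetin and 673, 600.4 and 731 with rutin. On the log2 scale the pooled change was -0.53 ± 0.13 (SE, edgeR adjusted p = 0.0435), and -0.25 ± 0.08 (SE, edgeR adjusted p = 0.246) without replicate 4, the only library of 6-OHDA alone that lay far from the others.

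Of 22 axon guidance and outgrowth genes tested 2 were lower, both receptors, with a list median of -0.22 (-0.10 without replicate 4). UNC5B, a netrin receptor, had 88.9 CPM in 6-OHDA replicate 1, the lowest of that group, 118.4 in replicate 2 and 200.2 in replicate 4, with 71.3, 80 and 59.4 for quercetin and 63.2, 92.5 and 82.9 for rutin, so that rutin replicate 2 overlapped with 6-OHDA replicate 1. With both compounds pooled, the log2 change was -0.79 ± 0.16 (SE, edgeR adjusted p = 0.0222), and -0.46 ± 0.12 (SE, edgeR adjusted p = 0.142) without replicate 4. ROBO2, a receptor for Slit, had 643, 694, 602 and 1172 CPM in 6-OHDA replicates 1 to 4, 519.6, 514 and 523 with quercetin and 572, 564 and 584 with rutin. Its flavonol libraries lay just below 6-OHDA replicates 1 to 3, with a pooled log2 change of -0.52 ± 0.12 (SE, edgeR adjusted p = 0.0337), and -0.24 ± 0.06 (SE, edgeR adjusted p = 0.122) without replicate 4. Of 19 long genes for cell adhesion tested 2 were lower, with a list median of -0.11 (0.08 without replicate 4). NCAM2, 1 of these 2, was at -1.43 ± 0.34 (SE, edgeR adjusted p = 0.0357), and was not called without replicate 4 (edgeR adjusted p = 0.433). NCAM2 was near the floor, with 1.17 to 2.95 CPM in 6-OHDA alone and 0.107 to 1.40 with a flavonol. HRK, which promotes apoptosis, was the called gene of 19 apoptosis regulators tested, and had 46.2, 56.7, 51.5 and 84.9 CPM in 6-OHDA replicates 1 to 4, 37.7, 36.7 and 38 with quercetin and 40, 40.6 and 38.5 with rutin. Its groups did not overlap, with a pooled log2 change of -0.65 ± 0.12 (SE, edgeR adjusted p = 0.0187), and -0.40 ± 0.09 (SE, edgeR adjusted p = 0.108) without replicate 4. The median of the apoptosis list was -0.003 (0.01 without replicate 4).

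The 25 genes for cytosolic ribosomal proteins all had estimates above 0, with a median log2 change of 0.19, and 0.22 without replicate 4, and 1 of them was called. RPS19 had 746, 621, 840.3 and 786 CPM in 6-OHDA replicates 1 to 4, 1048, 844 and 966 with quercetin and 1064, 912 and 1074 with rutin. Each flavonol library was above each library of 6-OHDA alone, narrowly so for quercetin replicate 2 against 6-OHDA replicate 3. edgeR gave a pooled log2 change of 0.39 ± 0.09 (SE, edgeR adjusted p = 0.0305), and 0.42 ± 0.10 (SE, edgeR adjusted p = 0.108) without replicate 4. RPL13A, chosen after its values were seen, had 103.2, 60.7, 129 and 112.4 CPM in 6-OHDA replicates 1 to 4, 197, 188 and 153 with quercetin and 165, 146 and 162 with rutin, with a pooled log2 change of 0.71 ± 0.16 (SE, edgeR adjusted p = 0.0268), and 0.77 ± 0.18 (SE, edgeR adjusted p = 0.108) without replicate 4. Ribosomal protein genes have many near-identical pseudogene copies among which kallisto divides reads, so these levels are uncertain.

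Lists tied to the handling of flavonols had no gene called by edgeR. None of 14 tested genes for flavonoid uptake and conjugation was called (median -0.14; -0.09 without replicate 4). None of 5 tested aryl hydrocarbon receptor targets was called by edgeR (median 0.08; 0.13 without replicate 4). The receptor's feedback regulator TIPARP had 16.1, 15.8, 16.4 and 11.9 CPM in 6-OHDA replicates 1 to 4, 25.5, 25.2 and 27.6 with quercetin and 23.1, 21 and 22.7 with rutin. All 6 flavonol libraries of TIPARP were above the 4 of 6-OHDA alone, but the pooled log2 change of 0.70 ± 0.22 (SE) was not called (edgeR adjusted p = 0.101; without replicate 4 0.58, adjusted p = 0.411). DESeq2 called TIPARP higher, at 0.69 (DESeq2 adjusted p = 0.0176). In all, 20 lists had no gene called by edgeR. The list median furthest from 0 among them was that of 11 inhibitors of MAPK signalling that act in its feedback, at 0.55 (0.38 without replicate 4), with estimates from -0.23 for DUSP16 to 0.97 for DUSP5, none of them called.

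The series' design text ties quercetin to CEBPB, a transcription factor of the C/EBP family, and rutin to a gene written there as AKR13C, read here as the aldo-keto reductase gene AKR1C3. CEBPB had 50.5, 58.5, 54.5 and 45 CPM in 6-OHDA replicates 1 to 4, 46, 53.1 and 38.6 with quercetin and 42.7, 49.8 and 56 with rutin. The groups overlapped, and the pooled log2 change was -0.12 ± 0.12 (SE, edgeR adjusted p = 0.698), and -0.19 ± 0.13 (SE, edgeR adjusted p = 0.675) without replicate 4. Untreated alpha-synuclein cells had 3.33 ± 0.536 CPM (SD, n = 4), so CEBPB stood far above the untreated level with and without a compound. AKR1C3 had 0.831, 1.08, 1.88 and 1.19 CPM in 6-OHDA replicates 1 to 4, 0.703, 1.7 and 2.81 with quercetin and 2.08, 2.14 and 1.05 with rutin, near the floor, and its pooled log2 change was 0.59 ± 0.39 (SE, edgeR adjusted p = 0.521), and 0.57 ± 0.48 (SE, edgeR adjusted p = 0.775) without replicate 4. By compound, CEBPB changed by -0.17 with quercetin (edgeR adjusted p = 0.599) and AKR1C3 by 0.61 with rutin (edgeR adjusted p = 0.691). Without replicate 4 these values were -0.24 (edgeR adjusted p = 0.551) and 0.59 (edgeR adjusted p = 0.819). TH, the enzyme that limits dopamine synthesis, had 83.9, 71.8, 46.8 and 66.6 CPM in 6-OHDA replicates 1 to 4, 78.9, 58.9 and 55.7 with quercetin and 63.3, 49.3 and 75.2 with rutin. The 3 groups overlapped, and the pooled log2 change of TH was -0.10 ± 0.14 (SE, edgeR adjusted p = 0.803), and -0.11 ± 0.15 (SE, edgeR adjusted p = 0.888) without replicate 4. By edgeR none of the 5 tested C/EBP genes, 9 aldo-keto reductases or 12 genes of dopamine synthesis, storage and breakdown was called.

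Each compound was also compared with 6-OHDA alone on its own. These 2 comparisons share the 4 libraries of 6-OHDA alone, so their values are given side by side and their likeness is not read as a result. Quercetin gave 93 higher and 327 lower genes, 0.56% and 1.97% of those tested, and 21 and 63 without replicate 4 (0.128% and 0.383%). Rutin gave no called gene in either direction by edgeR, with 1790 genes at an unadjusted p under 0.05, and none without replicate 4 either, with 1391. DESeq2 called 27 higher and 258 lower genes with rutin. No gene was called with each compound on its own by edgeR, whereas DESeq2 called 158 genes in the same direction with both. The 11 genes had log2 changes of -0.89 to -0.45 with quercetin and -0.66 to -0.34 with rutin. Without replicate 4 they ran from -0.66 to -0.37 with quercetin and from -0.67 to -0.09 with rutin, where THBS3 was at -0.09 (edgeR unadjusted p = 0.2) and the next smallest, HDAC6, at -0.25.

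**Figure D5:**
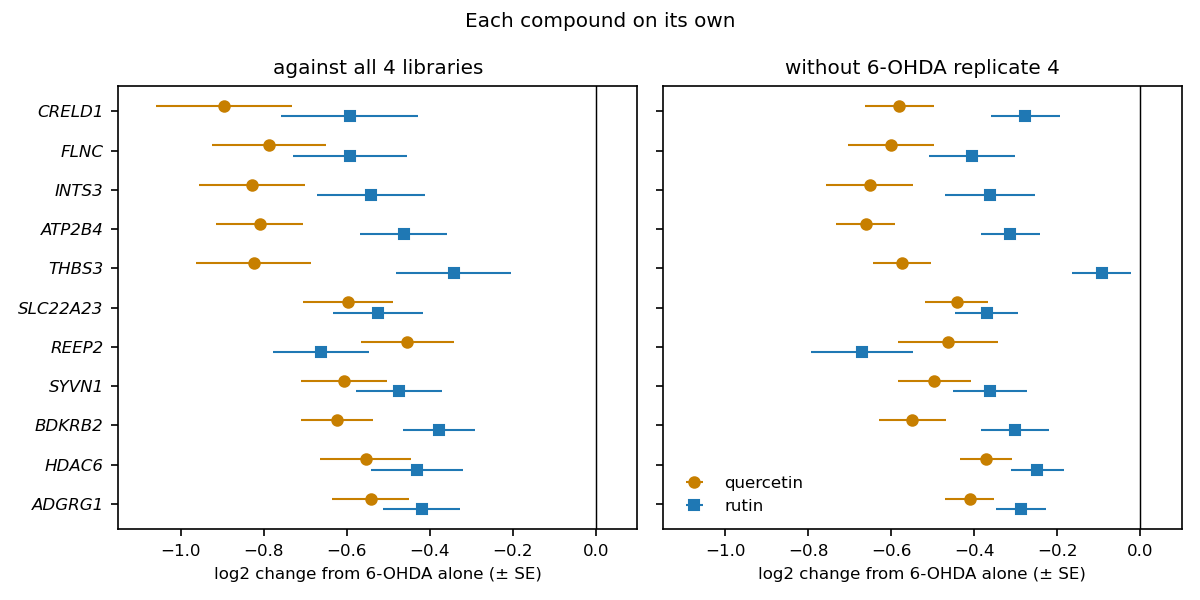
Log2 change from 6-OHDA alone, with SE bars, of the 11 genes with quercetin (orange circles) and with rutin (blue squares), against all 4 libraries (left) and without replicate 4 (right). Both compounds lie below 0 in each gene, REEP2 is the gene in which rutin lies further from 0 than quercetin, and THBS3 with rutin lies nearest to 0.

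The 2 compounds were set against each other as 1 pair, at doses and times that the sources do not give. With all libraries in the fit 1 gene differed (0.00602% of those tested), and 1481 had an unadjusted p under 0.05. That gene was SNCG, which encodes gamma-synuclein. Its level was 50.8, 61.4, 40.7 and 64.3 CPM in 6-OHDA replicates 1 to 4, 27.1, 31.5 and 28.7 with quercetin and 64.6, 54.8 and 51.1 with rutin. The quercetin libraries were below the rutin libraries and below 6-OHDA alone, and the rutin libraries lay within the range of 6-OHDA alone or beside it. The log2 difference, quercetin minus rutin, was -0.97 (95% interval -1.26 to -0.68, edgeR adjusted p = 0.0101). Replicate 4 enters this contrast only through the shared estimate of spread, the filter and the scaling, and without it 58 genes differed (0.353%), 30 higher and 28 lower with quercetin.

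None of the 339 genes called with the compounds pooled differed between them with all libraries, and 10 did without replicate 4. Of the 11 genes these were ATP2B4, with a log2 difference of -0.35 (95% interval -0.50 to -0.20, edgeR adjusted p = 0.0352), and THBS3, with -0.48 (95% interval -0.63 to -0.33, adjusted p = 0.0041). In both genes quercetin was lower than rutin. The other 9 did not pass the adjusted test. Without replicate 4 the intervals of 4 of them lay below 0: CRELD1 (-0.47 to -0.13), BDKRB2 (-0.41 to -0.08), INTS3 (-0.51 to -0.07) and ADGRG1, whose interval of -0.245 to -0.000745 ended just short of 0. The intervals of the other 5 held 0: FLNC (-0.41 to 0.02), SYVN1 (-0.32 to 0.05), SLC22A23 (-0.23 to 0.08), HDAC6 (-0.25 to 0.01) and REEP2 (-0.04 to 0.46). Intervals are for single genes and are not adjusted for the number of genes.

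Some called genes were named after their values were seen. LCNL1 (chr9:136981904-136986410, plus strand) and PTGDS (chr9:136975092-136981742, plus strand), which encodes a prostaglandin synthase of the lipocalin family, are neighbours on the same strand. LCNL1 had 111.3, 89.4, 96.1 and 138 CPM in 6-OHDA replicates 1 to 4, 45, 47.7 and 38.2 with quercetin and 67.5, 71.3 and 64 with rutin. Its groups did not overlap, and its pooled log2 change was -1.02 ± 0.18 (SE, edgeR adjusted p = 0.0138), and -0.87 ± 0.19 (SE, edgeR adjusted p = 0.106) without replicate 4. PTGDS had 70.5 to 130.4 CPM in 6-OHDA alone, with replicate 1 lowest and replicate 4 highest, 43, 45.2 and 39.9 with quercetin and 59.3, 71.7 and 67.9 with rutin. Against all 4 libraries the log2 change was -0.87 ± 0.16 (SE, edgeR adjusted p = 0.0187), and -0.67 ± 0.16 (SE, edgeR adjusted p = 0.122) without replicate 4. The sources used here do not say how reads were divided between the neighbours. KCNA2, a voltage-gated potassium channel gene, had 78.4, 77.9, 74.7 and 102.2 CPM in 6-OHDA replicates 1 to 4, 57, 52.7 and 53.5 with quercetin and 63.4, 57.7 and 44.1 with rutin. Its groups did not overlap, and its pooled log2 change was -0.61 ± 0.10 (SE, edgeR adjusted p = 0.0118), and -0.48 ± 0.10 (SE, edgeR adjusted p = 0.0924) without replicate 4. CCND1, a cyclin gene, had 11.5, 12.2, 16.4 and 12.7 CPM in 6-OHDA replicates 1 to 4, 20, 23.9 and 28.1 with quercetin and 18.7, 28.6 and 15 with rutin, so that rutin replicate 3 lay within the range of 6-OHDA alone. The 6 flavonol libraries gave a log2 change of 0.80 ± 0.20 (SE, edgeR adjusted p = 0.0462), and 0.78 ± 0.24 (SE, edgeR adjusted p = 0.225) without replicate 4.

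TRIM66, a gene for a chromatin-associated protein, shows how far replicate 4 could set a call. Its level was 44.2, 67.1, 42.8 and 205 CPM in 6-OHDA replicates 1 to 4, 37.3, 38.2 and 38.6 with quercetin and 34.7, 39.7 and 31.5 with rutin. The groups did not overlap, yet replicate 4 was more than 3 times as high as the next library. The pooled log2 change was -1.33 ± 0.28 (SE, edgeR adjusted p = 0.0242), and -0.46 ± 0.12 (SE, edgeR adjusted p = 0.152) without replicate 4.

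Transcript features and levels of the called genes are given beside those of all genes tested. The 286 lower genes had a median transcript length of 4.85 kb, a GC content of 55.6%, 14 exons and a level of 97.6 CPM in 6-OHDA alone. The medians of all genes tested were 3.39 kb, 48.5%, 7 exons and 14.8 CPM. The 53 higher genes had medians of 3.75 kb, 51.3%, 6 exons and 16.8 CPM, and the 11 genes called without replicate 4 had 5.25 kb, 56.3%, 14 exons and 290 CPM. Highly expressed genes are called more easily at a given size of change, and the part of length and GC content in the calls was not tested.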

How the data were processed

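PolyA RNA was sequenced in 22 libraries, per the labels, with InnuPREP extraction and MGIEasy library kits. The authors deposited estimated counts per gene, which are whole numbers without normalisation. The submitters' processing notes name Trimmomatic 0.38 and kallisto 0.46.2, and GRCh38 and hg38 as builds. The sources used here do not give the summing of transcripts to genes, the annotation or the use of strand.

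Columns were matched to samples by name. Genes were filtered with filterByExpr (minimum count 10), which left 0.174% of counts outside the 16601 tested genes. Rounded counts were scaled by TMM and fitted with glmQLFit and glmQLFTest of edgeR 4.0.16 in R 4.3.3 on 6 group means of all 22 libraries. The contrast was the mean of quercetin and rutin minus 6-OHDA alone, with Benjamini-Hochberg adjustment over all tested genes. Library names place 12 libraries on lane 1 and the 10 compared here on lane 2. No replicate pair agreed within sampling noise (chi-square per degree of freedom 3.26 to 19.9 among the 10). Alternatives were DESeq2 1.42.0, limma 3.58.1 (voom with quality weights), other filters and scalings, a replicate block and left-out libraries. The fit was also run on simulated data that held no outlying library and no difference of lane or toxin. That run therefore does not bear on replicate 4.

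The compounds, gene lists, rule for named genes and tests were chosen with earlier results of these data known. Named were CEBPB, AKR1C3 and TH, up to 15 genes per direction called with and without 6-OHDA replicate 4, with the same sign for each compound, no overlap and a mean of 5 CPM or more, which gave 10 lower genes and none higher (at an unadjusted p under 0.05, 749 were higher without replicate 4), and up to 4 members of each list by adjusted p. The text names a part of these, and 1 called list member is not reported here. THBS3, HMOX1, SNCG, LCNL1, PTGDS, KCNA2, CCND1, TRIM66, RPL13A and DUSP16 were named outside this rule, with their values known. In the ER list the same holds for HSP90B1, PDIA3, MANF, EDEM1, DNAJB9 and DNAJC3. Of 580 entries in 37 lists, 555 matched the table and 502 passed the filter. Positions come from GENCODE 29, to which 34658 gene IDs (99.9%) matched. Floors of 3 counts cover counting error only.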

Additional observations from a re-analysis of the deposited data

Results flagged for a closer look

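Among 84 sets of values, each from the 4 libraries of 6-OHDA alone or the 6 flavonol libraries, 9 had 1 library far from the rest. All 9 were in 6-OHDA alone and in each the library was replicate 4, while chance gives about 1 in 20. Replicate 4 was the highest library for ATP2B4 (447.6 CPM), SLC22A23 (374.3 CPM), INTS3 (54.5 CPM), THBS3 (441.9 CPM), ROBO2 (1172.4 CPM), TRIM66 (204.6 CPM) and KCNA2 (102.2 CPM). It was the lowest for TIPARP (11.9 CPM) and in its position along the wild-type 6-OHDA response (-2.68). The genes were chosen in part because they were called, so these sets are not independent of each other or of replicate 4.

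The difference between the compounds passed the edgeR test for SNCG, where quercetin minus rutin was -0.97 on the log2 scale. Among the 39 genes examined for flags it also passed, without 6-OHDA replicate 4, for ATP2B4 (-0.35) and THBS3 (-0.48). In all 3 genes each quercetin library was below each rutin library.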

How the results depend on the processing

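Counts of genes called higher and lower with the flavonols pooled were 53 and 286. They were 119 and 726 with DESeq2, 23 and 294 without a filter on low counts, 3 and 32 with limma-voom and quality weights, 0 and 1 in the fit on lane 2 alone with or without 6-OHDA replicate 4, 0 and 0 there with the 6 flavonol libraries as 1 group, and 0 and 1 when 6-OHDA replicates 2 and 4 and rutin replicate 3 were left out, an alternative added after seeing the data. Leaving out 1 library at a time gave 0 to 87 higher and 11 to 729 lower genes, both lowest without 6-OHDA replicate 4 and highest without 6-OHDA replicate 1. The 11 genes called without replicate 4 became 219 with DESeq2, 19 without a filter, 1 in the fit on lane 2 alone, 0 with the compounds as 1 group and 1 to 14 when a further library was left out. Genes called with each compound on its own numbered 0, and 1 with DESeq2 size factors, 158 with DESeq2, 2 without a filter, 3 with a minimum count of 30 and 0 to 94 when 1 library was left out. Genes higher and lower with quercetin than with rutin numbered 0 and 1, and 77 and 39 with DESeq2, 4 and 4 without a filter, 4 and 3 with a minimum count of 30, 0 and 0 on lane 2 alone, 27 and 12 there without replicate 4, 316 and 483 with limma-voom and quality weights, which gave replicate 4 a weight of 0.145, and 7 and 17 without the 3 libraries named above. Leaving out 1 library at a time gave 0 to 30 higher and 0 to 28 lower genes, both highest without 6-OHDA replicate 4. The position along the 6-OHDA response differed by 0.406 with genes changed at least 4-fold, against 0.302. The log2 change of TH, -0.10 and not called, ran from -0.24 to 0.026 when 1 library was left out and was above 0 without 6-OHDA replicate 1. Single genes changed direction in no other alternative, and their calls were the same in 501 comparisons with an alternative, lost in 265 and gained in 7. AKR1C3 and NCAM2 entered 18 alternatives each, and RELB and NGFR 19, against 20 for each other gene. The missing comparisons include those with DESeq2, which gave these 4 genes no adjusted p. The causes of the differences between alternatives were not tested.

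Same-numbered libraries showed no shared deviation: correlations of their deviations from group means were -0.04 to 0.05. Paired samples need not share a deviation that this measure can detect, so these values do not settle whether the numbers pair the samples. The labels do not say whether they do. With a replicate block in the fit on lane 2, 0 genes were higher, 0 lower, 0 called without replicate 4, 0 called with each compound on its own and 0 different between the compounds, while 1891 had an unadjusted p under 0.05 in the pooled comparison.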
